A study of Mus musculus with 4 samples.

Results

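The genes described are 5 members of the CCN family of secreted matrix proteins (Cyr61, Ctgf, Nov, Wisp1 and Wisp2), a pair of further target genes of the coactivator YAP (Ankrd1 and Amotl2), and the genes of YAP and of its paralogue TAZ (Yap1 and Wwtr1). They were taken by name, 9 of 46517 genes listed for each library, and they were chosen by their exon reads and RPKM in these same libraries, which were already known, so that those values are given as a description with no test. The cells were PαS cells, a fraction enriched in mesenchymal stem cells, from wild-type C57BL/6J mice. They came from the injured tissue in and next to the femur and had been sorted as positive for PDGFRalpha and Sca1 and negative for CD34, CD31, Ter119, CD11b and CD45. All 4 libraries came from cells seeded at 3000 per well and kept for 7 days in osteogenic medium, to which nothing ("none"), 10 ng/ml IL-17A, 500 ng/ml BMP-2 or both cytokines at those doses had been added. Each condition was sequenced as 1 library. The number of animals or wells behind a library is not given in the sources used here. A sorted population that has been cultured is no longer the population that left the sorter.

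CCN proteins are secreted into the matrix around a cell, where they bind integrins, proteoglycans and growth factors and alter how cells attach, divide and differentiate. Cyr61 and Ctgf are the most widely used readouts of YAP and TAZ. These coactivators are held in the cytoplasm and degraded when the kinases of the Hippo pathway are active, and otherwise enter the nucleus, where they bind TEAD factors on DNA and switch on target genes. In cells of the skeleton, both arms have been tied to the choice between bone, cartilage and fat.

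Between 4984805 and 5083430 reads fell in genes in the none, BMP-2 and both libraries, and 4490743 in the IL-17A library. Exon reads numbered 4190612 to 4719412, and 12940 to 13449 genes had 1 or more. The markers of PαS cells were present throughout, with 375 to 739 exon reads of Pdgfra, 7636 to 10973 of Ly6a (the gene of Sca1) and 111 to 224 of Thy1. Of the 5 endothelial markers, Pecam1 (CD31) and Cdh5 had 0 reads in every library, while Kdr had 0 to 117, Tek 0 to 63 and Cd34, whose product the sort excluded, 0 to 94. Of 9 skeletal muscle markers, Myf5, Myod1, Myh3 and Ckm had 0 reads throughout, Acta1 had 168 to 266 and Des 46 to 139. The 6 macrophage markers summed to 72.6 to 281 RPKM. The highest sum, with BMP-2, was almost all Lyz2 (269 RPKM). In the order none, IL-17A, BMP-2 and both, Cd68 had 33, 0, 50 and 10 reads and Itgam 2, 0, 29 and 0. Like Lyz2, these were highest with BMP-2. Csf1r, in contrast, was lowest in the BMP-2 library, at 61 reads, Adgre1 had 0 reads there, and Ptprc (CD45) had 0 to 4 reads in any library. The 6 osteoblast markers summed to 17.2 RPKM in the none library, 54.5 with IL-17A, 34.6 with BMP-2 and 88.0 in the both library, most of it Alpl (10.4, 47.7, 17.8 and 70.0 RPKM). Sp7 was at 3.80, 4.14, 14.2 and 16.2 RPKM, higher in the libraries with BMP-2 than in those without. Runx2 was at 2.34, 1.49, 2.30 and 1.78 RPKM, Ibsp had 0 reads throughout and Bglap 0 in the both library.

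No condition was repeated, and no test of a cytokine was made. A ratio between libraries is that of exon reads scaled by TMM, with an exact 95% interval that covers counting error and nothing of the variation between cultures or amplifications. RPKM, which divides reads by exon length and library size, is used where levels of different genes are set side by side. A ratio of 2 or above, or of 0.5 or below, whose interval excluded 1 is called 2-fold apart. The rule was applied to 11352 genes that averaged 10 or more exon reads over the libraries, and all 9 genes described were among them.

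The CCN genes fell into a very abundant and a scarce class. In the none library Wisp2 had 951 RPKM (interval 931 to 971), Cyr61 819 (802 to 837) and Ctgf 720 (706 to 734), which placed them at ranks 39, 48 and 59 of the 13400 genes with an exon read. Their intervals did not overlap. Amotl2 followed at 83.0 RPKM, then Wwtr1 at 24.6, Nov at 19.6, Ankrd1 at 17.3, Yap1 at 8.80 and Wisp1 at 8.14. Nov and Ankrd1 could not be put in order within counting error, nor could Yap1 and Wisp1. With both cytokines Wisp2 was the lowest of the abundant CCN genes, with Ctgf at 602 RPKM (590 to 615), Cyr61 at 556 (542 to 571) and Wisp2 at 399 (387 to 412). In that library 15.2% of the exon reads of Ctgf were not unique to it. Its place above Cyr61 depends on those reads and is not kept with unique reads. Nov was last of the 9.

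**Figure D1:**
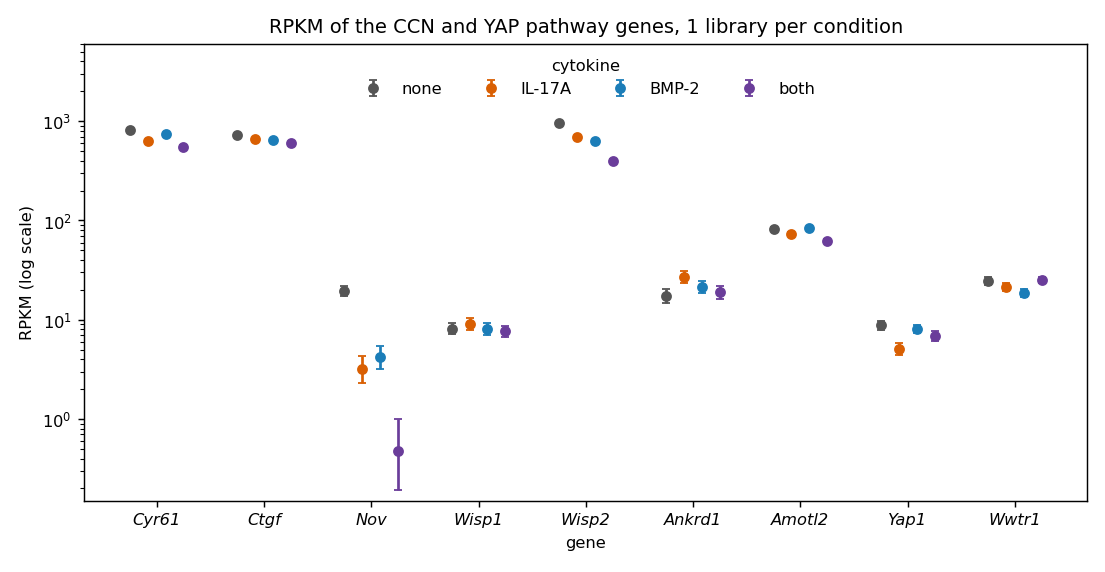
RPKM of the 9 genes in the 4 libraries on a log axis, 1 point per library, with bars for the exact 95% counting interval. Wisp2, Cyr61 and Ctgf stand between 399 and 951 RPKM in every library, and Nov descends from 19.6 RPKM without cytokine to 0.480 with both.

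The CCN gene that differed most between the libraries was Nov (CCN3, chr15:54745702-54754039 of mm10, plus strand), whose protein has been found in mouse cells to oppose BMP signalling and osteoblast differentiation. Its exon reads numbered 280 in the none library, 41 with IL-17A, 61 with BMP-2 and 7 in the both library, or 19.6, 3.18, 4.19 and 0.480 RPKM. Each cytokine alone thus had a low value and both together the lowest, with no overlap of the interval of the none library (17.4 to 22.0 RPKM) or of the both library (0.193 to 0.989 RPKM) with any other.

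The ratio of Nov to the none library was 0.160 (0.112 to 0.222) with IL-17A, 0.213 (0.159 to 0.282) with BMP-2 and 0.0238 (0.00947 to 0.0496) with the pair, 42.1-fold lower. The library with both was also below each single cytokine, at a ratio of 0.112 (0.0430 to 0.244) over BMP-2 and of 0.149 (0.0564 to 0.335) over IL-17A. The ratios with the single cytokines multiply to 0.0340, which lies inside the interval of the ratio with both. Reads that span a splice junction, which cannot come from genomic DNA or unspliced RNA, numbered 103, 14, 16 and 2 in the same order, and no intron read was counted in any library. A lower value in a bulk library cannot tell fewer Nov-positive cells from less Nov RNA in each cell. The summed RPKM of the 5 endothelial markers was also lowest with both, at 6.29, 4.33, 4.63 and 0.960 in that order, with Pecam1 and Cdh5 at 0 throughout. The other markers of that list did not move together, with 117, 0, 70 and 0 reads of Kdr, 0, 51, 63 and 23 of Tek and 94, 44, 12 and 0 of Cd34, and their part in the Nov values was not tested.

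Wisp2 (CCN5, chr2:163820861-163833146, plus strand) encodes the CCN protein that lacks the C-terminal domain of the others. It had 9120 exon reads in the none library, 6015 with IL-17A, 6199 with BMP-2 and 3905 in the both library, or 951, 696, 636 and 399 RPKM. The single cytokines gave intermediate levels and both together the lowest, and no intervals overlapped. Over none, the ratio was 0.719 (0.695 to 0.742) with IL-17A, 0.665 (0.644 to 0.687) with BMP-2 and 0.407 (0.392 to 0.423) with the pair. Wisp2 is 1 of 341 genes that averaged 2000 or more reads, of which 32 were 2-fold apart with both over none, 18 of them lower. Of the other 340, 5 had a ratio at or below its own. The same count was 43 for Cyr61, 95 for Ctgf and 63 for Amotl2. These values chose the genes, so nothing is read from the counts.

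The departure of Wisp2 from a product of the single ratios, on the log2 scale, was -0.23 (-0.31 to -0.16), so that the level with both was lower than that product, 0.478 of the none library. Wisp2 made up 37.8% of the summed RPKM of the CCN genes in the none library and 25.5% with both. The share of Ctgf was 28.6% and 38.5%, and the sum itself was 2518, 1994, 2041 and 1566 RPKM in the order none, IL-17A, BMP-2 and both. The 6 adipocyte markers summed to 416, 468, 441 and 839 RPKM, a sum carried by Fabp4 (298, 347, 305 and 668 RPKM). Lpl (35.6, 35.0, 41.4 and 61.6 RPKM), Adipoq (16.4, 32.9, 26.0 and 35.6) and Plin1 (1.78, 2.44, 1.13 and 8.32) were also highest with both. Cfd was at 48.9, 40.5, 52.8 and 53.3 RPKM. Pparg, at 15.4, 9.95, 14.7 and 12.3 RPKM, did not follow Fabp4, and the part of these markers in the Wisp2 values was not tested.

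Cyr61 (CCN1, chr3:145646976-145649981, minus strand) had 8247 exon reads with none, 5676 with IL-17A, 7684 with BMP-2 and 5710 in the both library, or 819, 626, 751 and 556 RPKM. The pair of libraries with IL-17A was below the pair without it. IL-17A gave a ratio of 0.750 (0.725 to 0.776) over none and of 0.722 (0.698 to 0.748) over BMP-2 alone, and BMP-2 gave 0.912 (0.884 to 0.940) over none and 0.878 (0.846 to 0.911) over IL-17A alone. The departure from the product of single ratios was -0.054 (-0.12 to 0.015) on the log2 scale. The summed RPKM of the 6 chondrocyte markers, mostly Comp, was low in the libraries with IL-17A, at 138, 72.8, 132 and 56.0 in the order none, IL-17A, BMP-2 and both. Col2a1 was also low in them, with 436, 320, 696 and 125 reads. Sox9 did not follow, with 177, 155, 152 and 199 reads, and Acan and Col9a1 had 0 reads. The part of these markers in the Cyr61 values was not tested.

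Ctgf (CCN2, chr10:24595442-24598683, plus strand), known for driving matrix production, varied least among the abundant CCN genes. It had 10273, 8474, 9313 and 8757 exon reads in the order none, IL-17A, BMP-2 and both, or 720, 660, 642 and 602 RPKM. All libraries with a cytokine were below the none library beyond counting error, the lowest ratio being 0.811 (0.788 to 0.834) with both. Between 13.4 and 15.2% of its exon reads were not unique to it. An antisense gene, Gm15270, overlaps 665 of its 2861 exonic bases, and had 0 to 6 exon reads. With the unique reads the ratio with both was 0.806 (0.781 to 0.831).

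Wisp1 (CCN4, chr15:66891320-66923201, plus strand), a gene induced by Wnt signalling and known in osteoblast precursors, had 224, 225, 227 and 214 exon reads in the order none, IL-17A, BMP-2 and both. The RPKM was 8.14, 9.08, 8.11 and 7.63. By exon reads no comparison placed it apart beyond counting error, with ratios over none of 1.09 (0.906 to 1.32), 0.991 (0.821 to 1.20) and 0.909 (0.750 to 1.10), so that at this depth differences of up to about those bounds were not detectable. Its spliced reads, 52, 43, 54 and 35, gave 0.639 (0.405 to 0.996) for both over BMP-2, which excludes 1, and 0.648 (0.410 to 1.01) for both over none. The remaining gene of the family, Wisp3 (CCN6), which is not among the 9, had 0 exon reads in 3 libraries and 3 in the BMP-2 library.

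**Figure D2:**
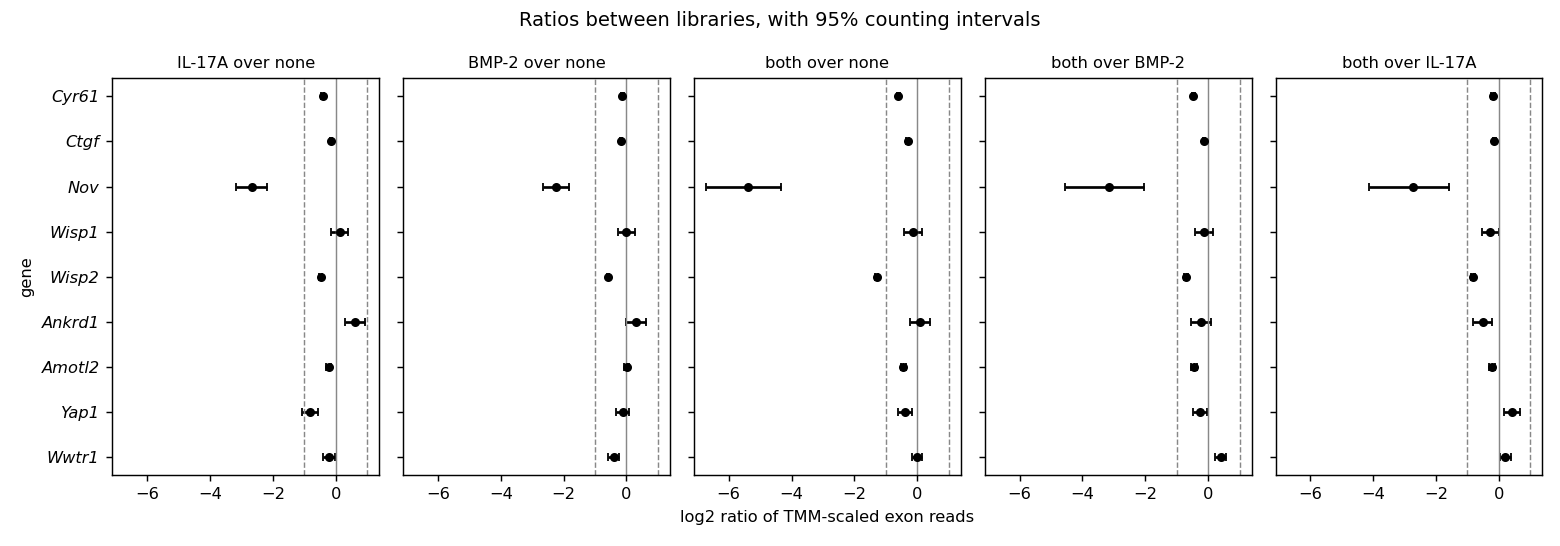
Log2 ratios of TMM-scaled exon reads of the 9 genes in the 5 comparisons, with bars for the 95% counting interval. Nov lies far below the others in every comparison, Wisp2, Cyr61 and Ctgf are below 0 in all 5, and Wisp1 spans 0 in all 5.

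The YAP target gene Ankrd1 (chr19:36111965-36119844, minus strand), which encodes an ankyrin repeat protein of nuclei and of the sarcomere, behaved unlike Cyr61 and Ctgf. It had 152 exon reads with none, 213 with IL-17A, 193 with BMP-2 and 170 in the both library, or 17.3, 26.9, 21.6 and 18.9 RPKM. The IL-17A library was highest, and the none and both libraries could not be put in order. The ratio of IL-17A over none was 1.53 (1.23 to 1.89), and that of both over IL-17A was 0.697 (0.566 to 0.856), while both over none was 1.06 (0.850 to 1.33), or 0.931 (0.688 to 1.26) with spliced reads. The departure from the product of single ratios was -0.82 on the log2 scale, and -0.83 (-1.26 to -0.41) with no pseudocount. The sum over the 9 muscle markers was 44.7, 40.4, 31.2 and 25.6 RPKM, most of it Acta1, and its part in the Ankrd1 values was not tested.

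Amotl2 (chr9:102716672-102733418, plus strand) encodes an angiomotin-like protein that is both a target of YAP and a binding partner that keeps it out of the nucleus. It had 2602, 2051, 2661 and 2009 exon reads in the order none, IL-17A, BMP-2 and both, or 83.0, 72.6, 83.5 and 62.8 RPKM. As for Cyr61, the pair with IL-17A was below the pair without. The ratio for IL-17A was 0.859 (0.810 to 0.910) over none and 0.734 (0.692 to 0.778) over BMP-2, and that for BMP-2 alone over none was 1.00 (0.948 to 1.06). Spliced reads alone gave 0.984 (0.888 to 1.09) for IL-17A over none, and they made up 35.4% of the exon reads of Amotl2 in that library against 30.7% in the none library.

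Yap1 (chr9:7931999-8004596, minus strand) had 406 exon reads with none, 211 with IL-17A, 380 with BMP-2 and 325 in the both library, or 8.80, 5.08, 8.10 and 6.91 RPKM. The IL-17A library stood below the rest. Its ratio over none was 0.566 (0.477 to 0.670), and the ratio of both over BMP-2 was 0.831 (0.715 to 0.967). The latter was 0.802 (0.614 to 1.05) with spliced reads and 0.900 (0.780 to 1.04) with all gene reads, neither of which excludes 1. The ratio of both over IL-17A was 1.34 (1.13 to 1.61), and the departure from the product of single ratios was 0.55 (0.23 to 0.88) on the log2 scale.

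Wwtr1 (chr3:57455649-57575910, minus strand), the gene of TAZ, had 586, 464, 450 and 612 exon reads in the order none, IL-17A, BMP-2 and both, or 24.6, 21.6, 18.6 and 25.2 RPKM. By exon reads the libraries with a single cytokine were below the other pair. Over none, IL-17A gave a ratio of 0.863 (0.762 to 0.976), BMP-2 one of 0.751 (0.663 to 0.851) and the pair one of 0.993 (0.885 to 1.11). The ratio of both over BMP-2 was 1.32 (1.17 to 1.496). With spliced reads the ratio of IL-17A over none lay on the other side of 1, at 1.06 (0.864 to 1.30), so that no direction can be given for Wwtr1 in this comparison. For BMP-2 over none they gave 0.887 (0.720 to 1.09), which no longer excludes 1.

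Intron reads of these coactivator genes were not spread evenly over the libraries. Of the gene reads of Yap1, introns held 13 of 419 with none (3.10%), 34 of 245 with IL-17A (13.9%), 25 of 405 with BMP-2 (6.17%) and 54 of 379 with both (14.2%). For Wwtr1 the shares were 1.51, 10.1, 0.881 and 5.26%. In each gene both libraries with IL-17A had a higher share than both without, while the share over all genes was 6.25 to 7.17%. Uneven shares were not particular to the coactivator genes. In the same order they were 4.02, 0.292, 2.06 and 2.66% for Amotl2 and 0, 2.29, 0 and 7.61% for Ankrd1. For Wisp1 they were 2.18, 3.85, 9.20 and 10.8%. Counting intron reads as well, the ratio of IL-17A over none was 0.633 (0.538 to 0.743) for Yap1 and 0.938 (0.832 to 1.06) for Wwtr1. The library kit does not keep the strand, so reads from transcripts on the other strand cannot be told apart.

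**Figure D3:**
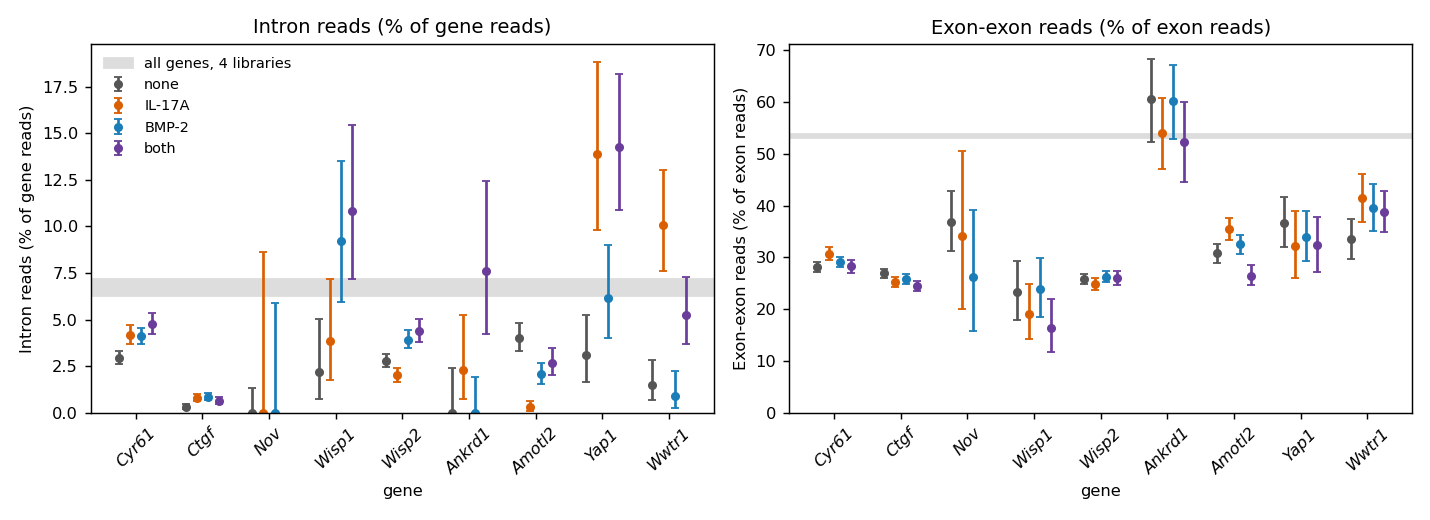
Intron reads as a percentage of gene reads (left) and exon-exon reads as a percentage of exon reads (right) for the 9 genes in each library, with exact 95% intervals and a grey band for the range of all genes over the 4 libraries. Values on fewer than 20 exon reads are left out, which removes Nov in the both library. Yap1 and Wwtr1 have intron shares of 5.26 to 14.2% in the libraries with IL-17A and 0.881 to 6.17% in the others.

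The stretches that hold the core TEAD motif are shown because the target genes are read as output of YAP and TAZ through TEAD. RefSeq promoters (GRCm38.p6, the mm10 assembly) were matched for 5 of the 9 genes, and not for Ctgf, Nov, Wisp1 and Wisp2. The motif was searched for as GGAATG on either strand, which reads CATTCC when it lies on the other, in the 250 bases before each RefSeq start. Each stretch of 30 bases runs 5′ to 3′ on the strand of the gene, with the motif in capitals.
Cyr61, chr3:145650071-145650100, minus: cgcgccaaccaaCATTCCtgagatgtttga
Ankrd1, chr19:36120037-36120066, minus: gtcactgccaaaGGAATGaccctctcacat
Ankrd1, chr19:36119950-36119979, minus: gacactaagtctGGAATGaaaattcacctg
Amotl2, chr9:102717727-102717756, plus: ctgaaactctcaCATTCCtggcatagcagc
Yap1, chr9:8004720-8004749, minus: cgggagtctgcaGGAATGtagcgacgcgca
Wwtr1, chr3:57576029-57576058, minus: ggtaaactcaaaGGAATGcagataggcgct

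All 5 of the genes matched held the motif, Ankrd1 at 2 places. Of 32851 RefSeq promoters of the same length, 12.6% held it and 1.02% held it at 2 or more places. It began 103 bases before the start in Cyr61, 210 and 123 in Ankrd1, 65 in Amotl2, 141 in Yap1 and 136 in Wwtr1. The RefSeq start of Amotl2 lies 1132 bases inside the span given above for that gene, so that its stretch also lies within the span. In the GENCODE annotation the span of Ankrd1 reaches to base 36120099, so that both Ankrd1 stretches lie within that longer span. The AP-1 motif TGANTCA was in 6.75% of all promoters and the CArG box in 1.47%, and neither was found in these windows. A match of letters is not evidence of binding.

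With IL-17A over none, 1 of the 9 (Nov) was 2-fold lower and 0 higher. Over all genes tested, 20.8% were 2-fold apart in this comparison, 10.9% higher and 9.91% lower. With BMP-2 over none it was again Nov alone, where 22.5% of all genes were 2-fold apart, 10.7% higher and 11.8% lower. With both over none it was Nov and Wisp2, and among all genes 26.3%, of which 12.1% were higher and 14.2% lower. For both over BMP-2, Nov alone was 2-fold lower, and 27.0% of all genes were apart, 12.9% higher and 14.1% lower. Nov was also the one gene 2-fold lower when the library with both was set over IL-17A alone, where 23.5% of all genes were apart, 9.91% higher and 13.6% lower. These values chose the genes, so the shares are given side by side and nothing is read from them. The share of all genes also depends on depth. Among genes averaging 50 or more reads, as all 9 did, 12.9% were 2-fold apart with IL-17A over none and 17.7% with both over none.

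At the level of counting error more of the 9 were apart, and the most abundant of them have the narrowest intervals. With IL-17A over none the interval excluded 1 for 7 that were lower and for Ankrd1, which was higher, where it did so for 59.1% of all genes, 29.8% higher and 29.3% lower. For BMP-2 over none it did so for 5 of 9, all lower, against 60.8% of all genes, 29.6% higher and 31.1% lower. For both over none it did so for 6, all lower, against 65.2%, 31.7% higher and 33.5% lower. With both over BMP-2, 6 were lower and Wwtr1 was higher, against 66.0%, 32.7% higher and 33.2% lower. With both cytokines over IL-17A, 6 were lower and Yap1 and Wwtr1 were higher, against 62.3%, 29.8% higher and 32.5% lower. The median ratio of the 9 was 0.859, 0.912, 0.761, 0.831 and 0.855 in these 5 comparisons, and that of all genes 1.00, 0.993, 0.990, 0.997 and 0.992. The comparisons share libraries and are not independent of each other.

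**Figure D4:**
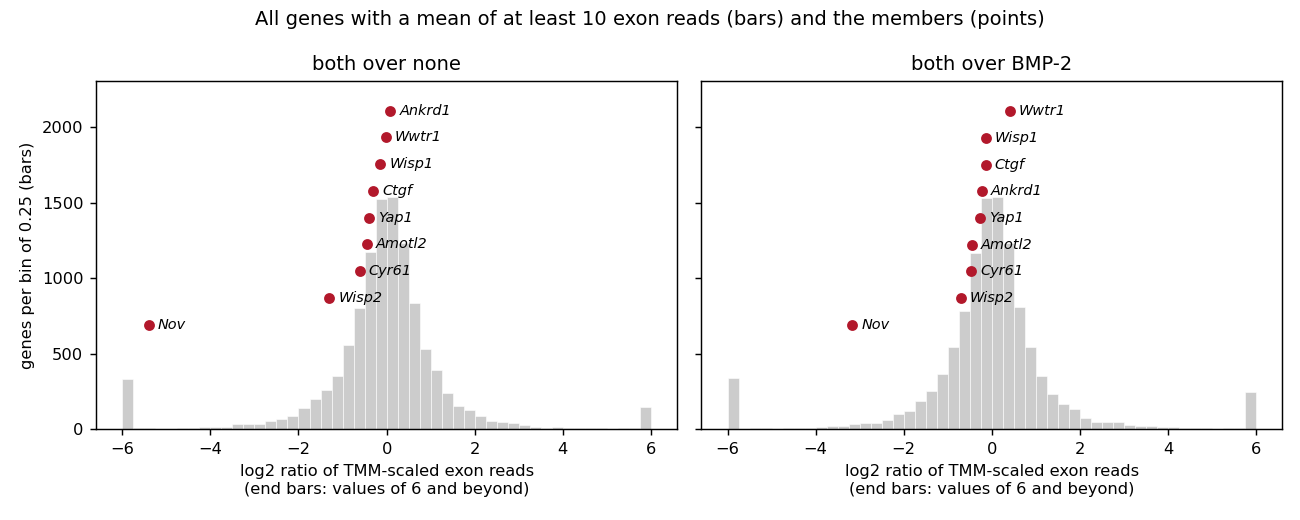
Histograms of the log2 ratio of 11352 genes averaging 10 or more exon reads, for both over none (left) and both over BMP-2 (right), with the 9 genes as points whose height has no meaning and end bars that also hold genes beyond the axis or with 0 reads in a library. Nov lies in the left tail of each panel, at -5.39 and -3.16, and the other 8 genes lie between -1.30 and 0.40.

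The remaining genes of a published YAP/TAZ-TEAD target signature, 17 of 18 of them measured, had medians below 0 on the log2 scale in each comparison. With IL-17A over none the interval excluded 1 for 10 lower and 2 higher of the 17, with 1 in each direction 2-fold apart and a median log2 ratio of -0.29, against 0.0060 for all genes. Over all genes, 29.3% were lower and 29.8% higher beyond counting error in that comparison, and 9.91% were 2-fold lower and 10.9% 2-fold higher. With both over none 11 were lower and 2 higher beyond counting error, against 33.5% and 31.7% of all genes, and 5 and 2 were 2-fold apart, against 14.2% and 12.1%, with a median of -0.41. With both over BMP-2 the split was more even, 7 lower and 4 higher beyond counting error, against 33.2% and 32.7% of all genes, and the median was -0.19. The list was chosen with results of these libraries known and gives no independent evidence of a direction.

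Among the 5 signature genes that were 2-fold lower with both over none, Nuak2 (a kinase of the AMPK family) had 426, 395, 334 and 75 reads, a ratio of 0.167 (0.129 to 0.214). Dock5, an activator of Rac, had 154, 43, 110 and 42 reads, a ratio of 0.259 (0.18 to 0.367), and Ccdc80, a secreted matrix protein, had 8319, 3818, 5555 and 2890, a ratio of 0.330 (0.317 to 0.345). The others, named after their values were seen, were Igfbp3 (0.442) and Tgfb2 (0.445). Ptpn14, a phosphatase that holds YAP in the cytoplasm and is itself a target, was higher with each cytokine, with 54, 154, 197 and 355 reads and a ratio of both over none of 6.25 (4.68 to 8.49). Foxf2, also 2-fold higher with both over none and named after its values were seen, had 15, 20, 11 and 52 reads. The receptor kinase gene Axl was close to level, at 5795, 5052, 5014 and 5251 reads.

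**Figure D5:**
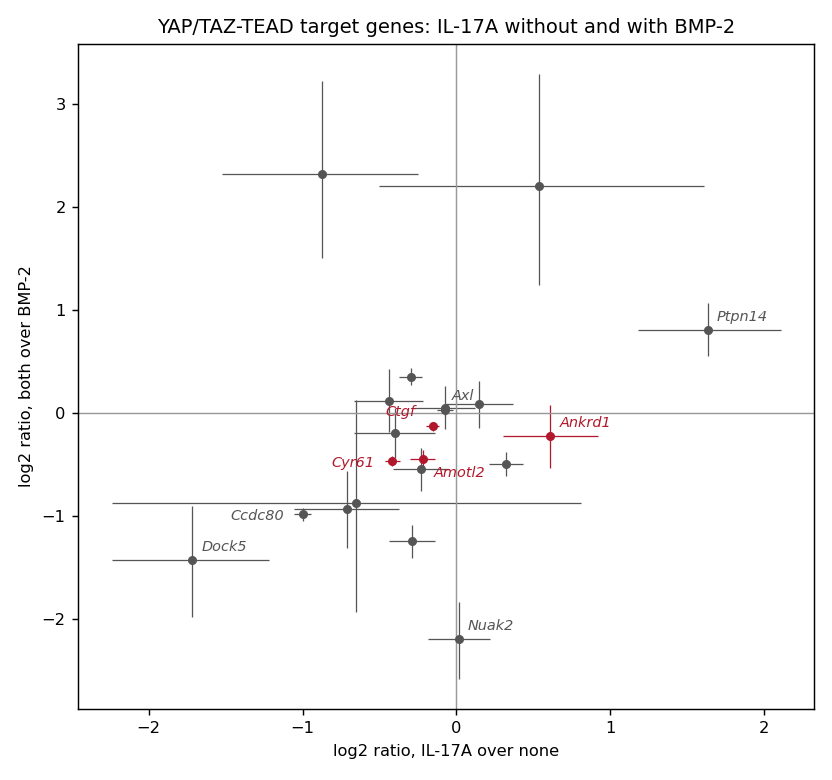
Log2 ratio of both over BMP-2 (vertical) against IL-17A over none (horizontal) for 21 measured genes of the YAP/TAZ-TEAD target signature, with 95% counting intervals and the 4 signature genes among the 9 in red. Ctgf, Cyr61 and Amotl2 lie below and left of 0, Ankrd1 lies right of 0, and Ptpn14, Dock5 and Nuak2 lie further out. Gadd45a and Foxf2, which carry no label, also lie far out, above 0 on the vertical axis.

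Of 16 kinases and adaptors of the Hippo pathway, 0 were 2-fold apart with IL-17A over none, where 20.8% of all genes were. With both over none 4 were lower and 1 higher, 31.3% of the list against 26.3% of all genes. Lats1, a kinase that phosphorylates YAP and TAZ, had 98, 90, 65 and 19 reads, a ratio of 0.184 (0.106 to 0.304). The more abundant Lats2, of the same list, had 579, 453, 462 and 326 reads and was not 2-fold apart. The upstream kinase gene Taok3 had 438, 436, 283 and 141 reads, a ratio of 0.306 (0.251 to 0.371). Taok2, the gene that was 2-fold higher and is named after its values were seen, had 145, 135, 225 and 325 reads. Of 11 TEAD factors and partners, 9 were measured. Amotl1, a paralogue of Amotl2, had 82, 221, 115 and 191 reads, highest in the libraries with IL-17A, with a ratio of IL-17A over none of 2.94 (2.27 to 3.83), in contrast to the 0.859 of Amotl2. Tead4 had 7, 10, 49 and 20 reads.

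A further list was drawn up for SRF, a factor that shares several targets with YAP, and holds Srf, Mkl1 and Mkl2 beside target genes. Its genes were seldom far apart with IL-17A over none, 1 of 10 being 2-fold higher and 0 lower, against 10.9% and 9.91% of all genes. Beyond counting error 7 of the 10 were higher and 1 lower, against 29.8% and 29.3% of all genes, with a median log2 ratio of 0.097. The gene 2-fold higher was Srf itself, with 115, 230, 153 and 275 reads and a ratio of 2.18 (1.74 to 2.75), while the smooth muscle actin gene Acta2 had a ratio of 1.01 (0.995 to 1.03). Among 10 receptors and co-receptors for CCN proteins, 3 were 2-fold lower and 0 higher with IL-17A over none, against 9.91% and 10.9% of all genes, and 0 were lower and 1 higher with both over none, against 14.2% and 12.1%. The integrin chain of the beta1 class, Itgb1, had 5450, 4441, 4269 and 3481 reads, and its ratio with both over none was 0.607 (0.582 to 0.634).

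Likeness of pattern was measured as the Euclidean distance between the 3 log2 ratios over none, with a pseudocount of 0.5 on CPM, among 8606 other genes that averaged 50 or more reads. The nearest gene to Nov was Firre at a distance of 1.32, with 226, 60, 78 and 2 reads, and then Atr at 1.54 and Irgm2 at 1.63, both with 0 reads in the both library. These distances rest on 0 to 7 reads in that library and on the pseudocount. The nearest gene of Wisp2 was St3gal5 at 0.077, with 294, 199, 196 and 130 reads, that of Cyr61 was Add3 at 0.031, that of Ctgf Stau1 at 0.038 and that of Wisp1 Rpp21 at 0.0054. The nearest of Ankrd1 was Sh3yl1 at 0.022, of Amotl2 Wee1 at 0.033, of Yap1 Ctso at 0.055 and of Wwtr1 Nup37 at 0.051. The distances are a description of these libraries.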

How the data were processed

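The authors extracted total RNA, made cDNA with the SMART-Seq v4 kit, which does not mark strand, sequenced it on an Ion Proton and used CLC Genomics Workbench. The build is mm10, per the submitters' processing notes. How reads were mapped is not given in the sources used here. The deposited tables hold counts of total, unique, spliced, intron and gene reads for each gene, and the authors' RPKM, which divides exon reads by exon length and by the summed gene reads.

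The following was computed from them. TMM factors of the exon reads came from edgeR 4.0.16 in R 4.3.3. Ratios and exact Clopper-Pearson 95% intervals were made with scipy 1.17.1, pandas 2.3.3 and numpy 2.4.6 under Python 3.11.15, and plots with matplotlib 3.10.9. The interval code was tested on simulated data. With 1 library per condition no test of a cytokine was made, and intervals cover counting error only, since amplified reads are not independent molecules. Departures and pattern distances used a pseudocount of 0.5 on CPM. The 9 genes and all lists were chosen with earlier results of these data known. From each of 5 pathway lists, up to 4 genes of highest mean and up to 3 of largest ratio of both over none could be named, and for each of the 9 the 3 genes of nearest pattern. Alternatives were DESeq2 1.42.0 size factors, library totals, TMM without the 100 most abundant genes, unique or spliced reads, other thresholds and other filters.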

Additional observations from a re-analysis of the deposited data

Results flagged for a closer look

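Among the 9 genes and 30 other named genes, Wwtr1 and several list genes had exon-read ratios for a cytokine that lay on opposite sides of 1 with and without the other cytokine. In each case both counting intervals excluded 1. The difference was not tested, as no library was repeated. For Wwtr1 the ratio of IL-17A was 0.863 over none and 1.32 over BMP-2, and the latter is 1.53 times the former. With spliced reads the former was 1.06 (0.864 to 1.30). The ratio of BMP-2 was 0.751 over none and 1.15 over IL-17A, again 1.53 times as high. With spliced reads these were 0.887 (0.720 to 1.09) and 1.10 (0.904 to 1.33), neither of which excludes 1, so that no change of direction can be given for Wwtr1.

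The same kind of difference, given as the ratio with the other cytokine divided by that without it, was 0.338 for Frmd6 (1.35 and 0.455 for IL-17A), 0.593 for Itgb5 and 0.648 for Itga5 with either cytokine. It was 0.55 for the BMP-2 ratios of Amotl1 (1.37 alone and 0.754 with IL-17A) and 0.736 for the IL-17A ratios of Vcl (1.06 and 0.779). For the BMP-2 ratios of Wwc1, which had 32 reads in the BMP-2 library and 0 in the both library, it was at most 0.0523 with a floor of 3 reads in the latter. For the IL-17A ratios of Itga6 it was 60.0, which rests on 1 read in the IL-17A library.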

How the results depend on the processing

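No paired analysis was possible because the libraries carry no replicate numbers, and with 1 library per condition none could be left out. Each cytokine was compared within both states of the other, and no additive model over the 4 libraries was fitted. With a threshold of 1.5, the number of the 9 genes apart was 3 with IL-17A over none, 2 with BMP-2 over none, 2 over BMP-2 with IL-17A added and 2 over IL-17A with BMP-2 added, and with a threshold of 3 it was 1 for both over none. With spliced reads it was 2 for IL-17A over none, since Yap1 passed at 0.494 (0.365 to 0.662). The log2 ratio of Wwtr1 with IL-17A over none was 0.084 with spliced reads. In the same order, with both over none as the third value, all genes 2-fold apart numbered 2363, 2550, 2984, 3065 and 2671. A threshold of 1.5 gave 4117, 4216, 4842, 4863 and 4494, a threshold of 3 gave 1238, 1403, 1672, 1772 and 1477, and a mean of at least 50 reads gave 1114, 1162, 1520, 1551 and 1284. Of 45 ratios of the 9 genes, the statement that the interval excludes 1 changed for 1 under each other scaling and with unique reads, for 6 with spliced reads and for 3 with all gene reads, the last an alternative chosen after seeing the data. Without repeated cultures, none of these settings bears on biological variation. The Nov ratios with both rest on 7 reads.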
